A study of Drosophila melanogaster with 8 samples.

Results

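Input DNA of the *dkdm4a* mutant line was set against input DNA of its wild type control line, probe by probe along the genome. Input is the chromatin DNA taken before immunoprecipitation, and it was hybridized in the Cy3 channel of every array of an H3K36me3 ChIP-chip experiment. The level of a probe is the log2 of its processed Cy3 intensity minus the median of its array, so that 0 is the middle of that array. For each replicate number, the wild type level was subtracted from the mutant level. A probe was taken as differing where this value was at or above 1, or at or below -1, in both replicates, and a difference of 1 on the log2 scale is a 2-fold difference in signal. A run is a series of neighbouring probes of 1 sequence that differ in the same direction and start at most 1000 bp apart. Of 475395 genomic probes on both array designs, 475144 were used after outlier spots of the input channel had been left out. Of these, 5871 probes differed (1.24% of all probes), and 266 of them formed 55 runs of at least 3 probes.

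The mutant line was y1 w67c23 and carried the P{SUPor-P} insertion KG04636 in *Kdm4A*, an element that bears the markers y+mDint2 and wBR.E.BR. The line called wild type was derived from it by mobilizing the element in a cross to y1w* flies, in which H{w[+mc]=PΔ2-3}Hop2.1, the source of P transposase, was on a CyO chromosome over Bc1EgfrE1, and by a further cross to a CyO balanced stock. The excision line was made so that both lines would share 1 chromosomal background. There were 2 biological samples of mutant and 2 of wild type embryos, each hybridized to 2 array designs. The embryos were aged 2 to 4 hr and came from population cages, so each sample is a pool, and a level between full and absent may be a share of the embryos or a share of the copies in each genome, which cannot be told apart here. Input DNA was amplified by ligation-mediated PCR before it was labeled.

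The H3K36me3 experiment reads the ratio of immunoprecipitated (IP) DNA to input. An input signal itself depends on how many copies of a sequence the genome holds, on how well the sequence matches the probe, and on how well it is amplified. Sequence variants under a probe, deleted and duplicated segments, mobile elements and the ends of chromosomes are places where fly lines are known to differ. In *Drosophila* the chromosome ends carry arrays of telomeric retrotransposons in place of telomerase repeats, and the mitochondrial genome is inherited through the egg in many copies. The SUPor-P element carries copies of *yellow* and *white*, both genes of the distal X chromosome. The files give probe positions without a named genome build and without gene names, so no gene was placed on a probe, *Kdm4A* included, and positions are those of the array files. Probe sequences were not used here.

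On each of the 8 arrays, at least 96.7% of the probes were well above background in the input and at least 85.6% in the IP. Both replicate 1 samples were scanned on 1 day and both replicate 2 samples on another. The replicate numbers differed far more than the lines did, and scan day and replicate number cannot be told apart here. In 46225 probes the input of replicate 2 was lower than that of replicate 1 by 1 or more in both genotypes, and in 3246 it was higher, in all 10.4% of the probes. Same-numbered samples share a scan day, so subtracting them does not cross the days. The labels call the samples biological replicates, and their number limits the precision of every value below.

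Most probes did not differ between the lines. The mutant level lay within 0.5 of the wild type level in 94.1% of the probes in replicate 1 and in 93.0% in replicate 2. The SD of the difference over all probes was 0.43 in replicate 1 and 0.41 in replicate 2. Of the differing probes, 2984 were lower in mutant embryos (0.628% of all probes) and 2887 were higher (0.608%). In 48 probes the replicates passed 1 in opposite directions. Across probes, which are not independent replicates, the differences of the replicates had a Pearson's r of 0.72 and a Spearman's rho of 0.30. The log2 difference reached 3 in both replicates in 507 lower and 681 higher probes, and 5 in 192 lower and 194 higher probes. The rule has no natural step at its threshold, since 785 probes had their smaller difference within 0.1 above it and 988 within 0.1 below it. The plot of all probes shows 1 dense cloud around 0 and thin arms that run along the diagonal to both ends.

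**Figure D1:**
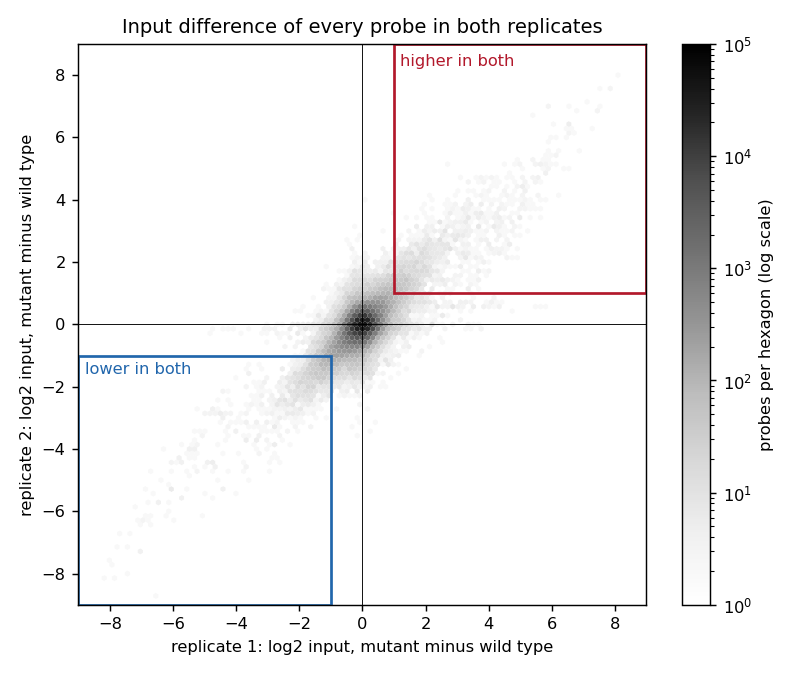
Log2 input difference of mutant minus wild type in replicate 1 (horizontal axis) and replicate 2 (vertical axis) for 475144 probes, with grey shade for the number of probes per hexagon on a log scale. The boxes mark the region of the 2984 probes lower and the 2887 probes higher in mutant in both replicates, and the most extreme of these probes lie beyond the axes.

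The differing probes were scattered for the most part. Of the 5871, 86.0% stood alone, with no neighbour that differed in the same direction. Another 277 runs held 2 probes. Runs of at least 3 probes numbered 33 lower in mutant, with 173 probes, and 22 higher in mutant, with 93 probes. They held 4.53% of the differing probes. Of the 55 runs, 42 had 3 or 4 probes. Their length was between 353 and 4882 bp, with a median of 668 bp, and neighbouring probes started 220 bp apart in the median over the whole array. The runs covered 35136 bp lower and 17256 bp higher in mutant embryos. All input values of differing probes and runs are descriptions of what the rule chose, and they are supported by no test.

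At 1339 differing probes the dimmer line was not well above background in either sample while the brighter line was well above it in both, 540 of them lower and 799 higher in mutant embryos. For such probes a fold is given as a lower bound. It is the mean log2 level of the brighter line minus the mean of the dimmer line, where each dim array counts as its own value or as the lowest level of any probe well above background on that array, whichever is higher. The median bound was at least 6.26-fold. Another 44 differing probes were not well above background in any of the 4 inputs and have no fold.

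The longest runs lay at the first probes of 3L, and all were lower in mutant embryos. Between the first probe of this arm at 3333 and the one ending at 25755, 70 of 76 probes differed, and none did in the other direction. In the first part, 14 probes from 5671 to 8858 had a mean log2 input level of -7.37 and -7.44 in mutant replicates 1 and 2, against -2.48 and -3.06 in wild type replicates 1 and 2. Of these 14 probes, 13 were not well above background in either mutant sample, and the wild type signal was at least 2.77-fold to 16.6-fold higher at the probes with a bound. From 9087 to 25755, 57 probes had a level of -1.61 and -2.23 in mutant embryos, against -0.38 and -0.86 in wild type embryos.

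Over this second part the difference was even from probe to probe. It averaged -1.23 in replicate 1 and -1.37 in replicate 2, with an SD over the 57 probes of 0.18 and 0.20. The place of the step was set where it best divided the probes into 2 levels, after the values had been seen. The difference ended within a few probes. The last differing probe, from 25696 to 25755, was at -1.10 and -1.45, the next at -0.90 and -1.32, the one after that at -0.74 and -0.64, and the third probe beyond at -0.25 and -0.28. Over the 50 probes after 25755 the mean was -0.12 and -0.09 and no probe differed.

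The first probes of 2L differed in the opposite direction. From 5448 to 10868, 19 of 24 probes were higher in mutant embryos. The mean log2 level over the 24 probes was -2.95 and -3.95 in mutant embryos, against -6.94 and -6.99 in wild type embryos, a difference of 4.00 in replicate 1 and 3.04 in replicate 2. The wild type samples were near the floor of the arrays here, with 15 of the differing probes bounded at 2.28-fold to 23.5-fold or more. The first 3 probes after this stretch were at 0.43, 0.31 and 0.11 in replicate 1, and the next 50 probes averaged 0.00 and -0.06. The other outer ends were not alike. Of the first 25 probes of X and the last 25 of 3R none differed. The X probes begin only at 100389, farther in than the stretches of 2L and 3L reach, so the outermost part of X was not measured. Of the last 25 of 2R, 1 was lower and 4 were higher, with a mean difference of 0.29 and 0.32 over the 25 probes.

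**Figure D2:**
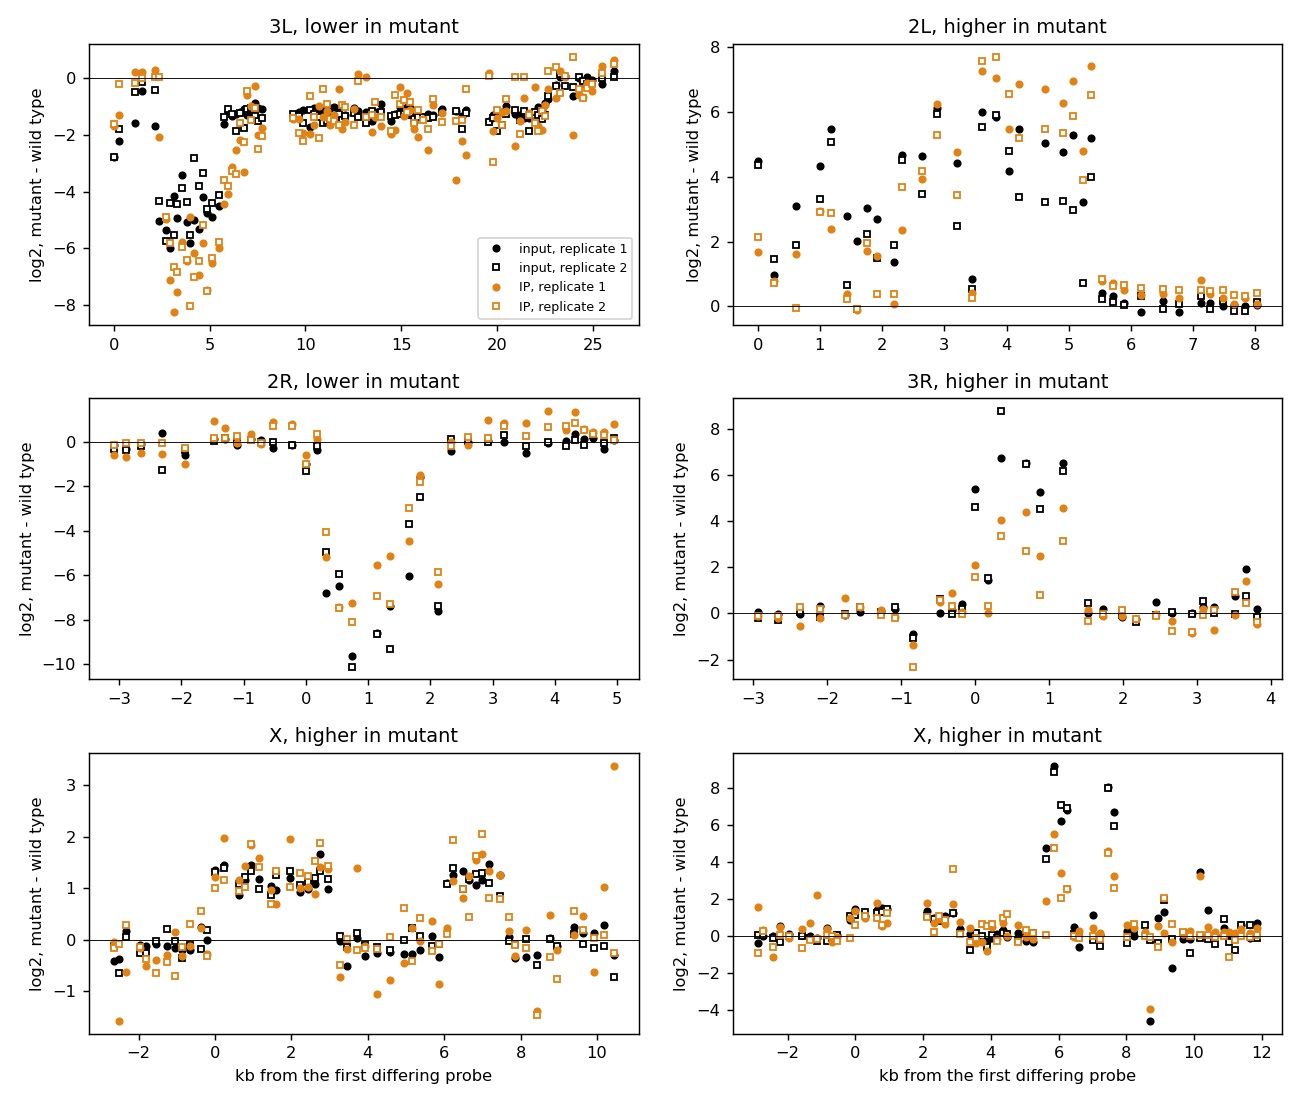
Log2 difference of mutant minus wild type for input (black) and IP (orange) in replicates 1 (filled circles) and 2 (open squares), against the distance in kb from the first differing probe, in 6 stretches. The 3L panel shows the deep first part and the even level near -1.3 after it, and each of the 2 X panels shows a pair of raised blocks with probes near 0 between them.

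Inside the arms, the run with the most probes that was lower in mutant embryos lay on 2R from 10388601 to 10390455. Its 8 probes had a mean level of -6.69 and -6.68 in mutant embryos, against 0.09 and -0.11 in wild type embryos, so the groups were far apart. The difference was -6.78 and -6.57. At the probe from 10389010 to 10389069 the level was -8.21 and -8.02 in mutant embryos, against 1.45 and 2.10 in wild type embryos. In 6 of the 8 probes the mutant was not well above background in either sample, with wild type at least 7.39-fold to 204-fold higher. At the seventh probe, from 10390109 to 10390160, and also at the second, the mutant stayed well above background. The seventh was at -1.59 and -1.89 in mutant embryos, against 0.01 and 0.60 in wild type embryos.

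On 3R, 6 probes from 7807749 to 7808703 were near the floor in mutant embryos as well. Their mean level was -6.59 and -6.71 in mutant embryos, against -2.33 and -2.63 in wild type embryos. A run of 3 probes followed from 7809021 to 7809932, all well above background in all 4 inputs, at -3.14 and -3.42 in mutant embryos, against 0.23 and 0.43 in wild type embryos. Another lower run of 4 probes on 3R, from 16900023 to 16900734, stood at -5.61 and -6.36 in mutant embryos, against -0.63 and -1.39 in wild type embryos. The shortest of the 10 leading lower runs was on 3L, from 7131186 to 7131781, with 4 probes at -6.14 and -6.04 in mutant embryos and -2.40 and -3.63 in wild type embryos. In each of these runs both mutant samples were below both wild type samples.

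Of the runs that were higher in mutant embryos, the one with the most probes lay on 2L, from 1276098 to 1277551. Its 9 probes had a mean level of -3.03 and -2.71 in mutant embryos, against -6.99 and -6.68 in wild type embryos. A second run of 3 probes lay beyond 1 probe that did not pass the rule, from 1277831 to 1278572, at -3.79 and -4.26 in mutant embryos and -7.72 and -7.94 in wild type embryos. On 3R, 6 probes from 1906754 to 1908003 were at -1.29 and -1.35 in mutant embryos, against -6.60 and -6.69 in wild type embryos. In 5 of these 6 probes the wild type inputs were not well above background, and the mutant was at least 5.97-fold to 69.9-fold higher.

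Runs of 4 probes with the wild type near the floor lay also on 2L from 13488972, on 2R from 14577330 and on X from 20774944. Their mean mutant levels were between -2.06 and -2.82, against wild type levels between -6.22 and -7.89. The run of 4 probes on 3L from 7280796 to 7281392 differed in that no probe was bounded by background. It had a level of -0.69 and -0.64 in mutant embryos, against -4.19 and -4.46 in wild type embryos.

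The X chromosome held 4 blocks of higher input in mutant embryos in its distal part. The first, from 210489 to 213308, had a mean level over 13 probes of 0.31 and -0.02 in mutant embryos, against -0.87 and -1.22 in wild type embryos. The second, from 216568 to 217724, had a level over 7 probes of 2.34 and 2.52 in mutant embryos, against 1.11 and 1.32 in wild type embryos. The difference was 1.19 in both replicates in the first block, and 1.22 and 1.19 in the second. All 20 probes were well above background in all 4 inputs, and the mean of both replicates was between 0.96 and 1.50 at every one of them.

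Between these blocks lay 12 probes from 213449 to 216400, of which none differed and which averaged -0.11 and 0.08. The first of them was at 0.98 and 1.19, just short of the rule, and the edges were sharp beyond it. The third block on X, from 2646473 to 2649422, was at 1.45 and 1.58 over 10 probes in mutant embryos, against 0.22 and 0.45 in wild type embryos, a difference of 1.24 and 1.13. The next 12 probes, from 2649571 to 2651769, averaged -0.01 and -0.07, and none of them differed. The 3 even blocks thus shared a difference near 1.2 with a spread over probes of 0.14 to 0.24 (SD). No annotation of the array's build was used, and whether any of these probes lies in *yellow* or *white* was not examined.

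The fourth block, from 2652110 to 2655641, was of another kind. Of its 16 probes, 7 were higher in mutant embryos and 8 were not well above background in any of the 4 inputs. Its leading run of 4 probes, from 2652110 to 2652777, was at 0.05 and 0.23 in mutant embryos, against -6.69 and -6.52 in wild type embryos. At the probe from 2652340 to 2652399 the mutant was at 1.07 and 1.08, against -8.12 and -7.78 in wild type embryos. A fold bound could be given for 2 of the 4 probes, at 4.63-fold and 110-fold or more, and the other 2 were measured above background in all 4 inputs.

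**Figure D3:**
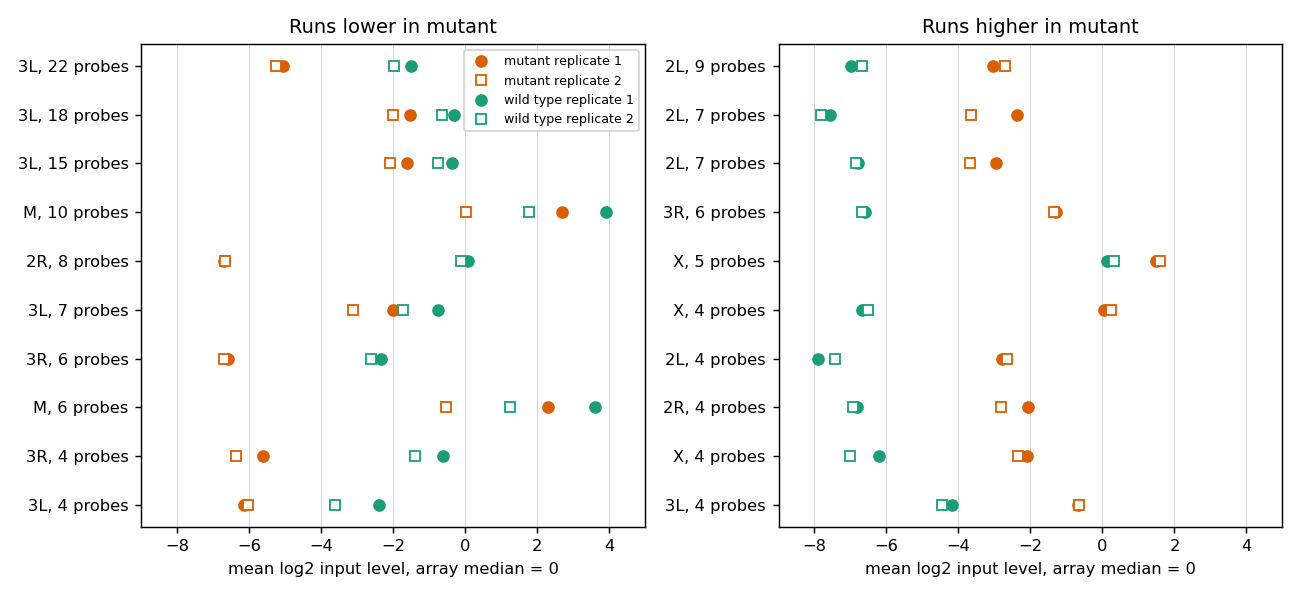
Mean log2 input level, with the array median at 0, of the 10 lower and the 10 higher runs with the most probes, in mutant (orange) and wild type (green) replicates 1 (filled circles) and 2 (open squares). In the M runs the replicates of a line lie more than 2 apart, and in many of the other runs the line with less signal lies near -7, at the floor of the arrays.

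The mitochondrial genome gave less signal in the mutant input of both replicates. Its 49 probes were all below 0 in both replicates, and 38 of them passed the rule, in 7 runs. The median log2 level was 2.01 and -0.60 in mutant replicates 1 and 2, against 3.26 and 1.18 in wild type replicates 1 and 2. The groups overlapped, since mutant replicate 1 was above wild type replicate 2. The median difference over the probes was -1.22 in replicate 1 and -1.68 in replicate 2. The replicates of a line differed more than the lines did, with replicate 2 lower than replicate 1 by a median of 2.55 in mutant and 2.03 in wild type embryos.

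The differing probes were not spread evenly over the genome. Their share was 2.21% on 2R (1007 lower, 764 higher), 1.94% on 3L (836 and 971), 1.10% on 3R (746 and 485), 0.827% on 2L (194 and 539) and 0.306% on X (142 and 118). On the small chromosome 4 only 2 of 3952 probes differed (0.0506%). Of the heterochromatic scaffolds named with an h, 3h held 19 of 3213 probes (0.591%) and Xh 2 of 494 (0.405%), both shares above that of X. None differed on 2h, 4h and Yh. Among the sequences that were not placed on a chromosome, named U, 8 of 5767 probes differed (0.139%). Of the differing probes, 73.5% were higher in mutant embryos on 2L, against 39.4% on 3R. The named runs of 2L and 2R were on the same array design, and those of 3L, X and M on the other. Shares of arms are therefore in part compared across different arrays.

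Whole megabases were free of differing probes. The first 7.48 Mb of 2R, from 3913 to 7486177, held 25870 probes and none that differed. On 2L no probe differed over 4.02 Mb, from 18037534 to 22054083, and on X over 2.88 Mb, from 7564528 to 10447094. On 3L and 3R the longest such intervals were 0.688 and 0.958 Mb. Beyond 8.5 Mb, 2R held 1003 lower and 763 higher probes among 50265, which is 3.51%, while up to that point only 5 of 29961 differed. The boundary was set after the values had been seen. The SD of the difference over probes was 0.73 and 0.70 in the distal part of 2R, against 0.22 in both replicates in the proximal part.

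In windows of 100 kb with at least 100 probes, 478 of 1220 windows (39.2%) held no differing probe and 45 held at least 5%. The window with the largest share was the first of 3L, with 70 lower and 2 higher among 335 probes (21.5%). The second lay on 3L from 10200001 to 10300000, where 37 of 409 probes (9.05%) were higher in mutant embryos and none was lower. The other 8 of the leading 10 windows held between 6.73% and 7.38% and were on 2R, except 1 on 3L, and all of them had probes of both directions. Of the 228 windows with at least 10 differing probes, 5 held only lower and 9 only higher ones. Among the one-sided windows was 3R from 14100001 to 14200000, with 26 lower of 405 probes. On 2L, the first 3 Mb held 58 higher and no lower probes among 12092, a share of 0.480%, against 1.24% of all probes. Of the 58, 19 lay in the stretch from 5448 and 12 in that from 1276098. The limit of 3 Mb was chosen after the values had been seen.

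**Figure D4:**
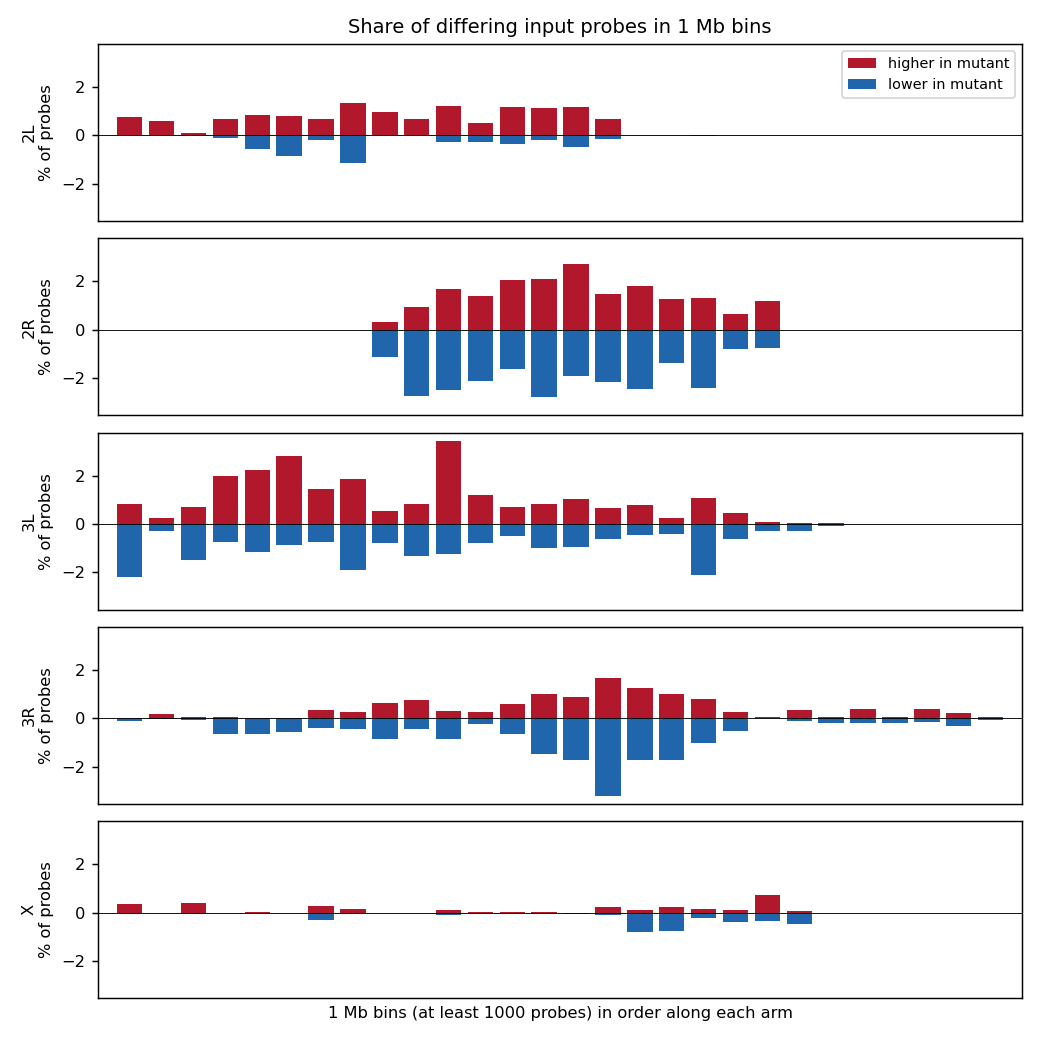
Share of probes that were higher (red, upward) and lower (blue, downward) in mutant embryos in 1 Mb bins with at least 1000 probes, in order along the arms 2L, 2R, 3L, 3R and X. The first bins of 2R are empty, its distal bins hold both directions, and 2L holds more higher than lower probes.

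To learn whether the immunoprecipitated DNA followed, the IP channel of the same spots was treated in the same way as the input. The IP channel was not used to choose the probes, but it shares arrays, spots and starting chromatin with the input. In 53 of the 55 runs (96.4%) the mean IP difference had the direction of the input in both replicates, in 32 of 33 lower and in 21 of 22 higher runs. With normexp, a background correction that estimates the background from the spots and adds an offset of 50, 35 of these 55 runs (63.6%) followed, and the median IP difference over their probes was 0.35 in the direction of the input, in place of 1.60. With the processed intensities, the IP difference was at least 1 in that direction in both replicates in 22 lower and 18 higher runs. Outside the mitochondrial genome and the first 30 kb of 2L and 3L, 38 of 40 runs followed. The exceptions were the lower run on 3R from 24108837 to 24109289, with an IP difference of 0.03 and -0.59, and the higher run on 2L from 1277831 to 1278572, with 1.06 and -0.18. Both had a low mean IP level in both lines, so they say little about whether the IP followed. The 3R run was at -4.59 and -4.52 in mutant and -4.62 and -3.93 in wild type embryos. The 2L run was at -3.95 and -4.53 in mutant and -5.01 and -4.35 in wild type embryos.

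How far the IP followed varied among the runs. In the 14 probes of the deep part of 3L the IP difference was -6.14 and -5.91, larger than the input difference of -4.89 and -4.38. In the even part of 3L it was -1.59 and -1.44, and the mean ratio of IP to input differed there by -0.34 and -0.04. In the 7 probes of 2L from 9055 to 10568 the IP was higher in mutant embryos by 6.65 and 6.24, against 5.22 and 4.15 in the input. By contrast, the run of 9 probes on 2L from 1276098 had an IP difference of 0.82 and 1.03 beside an input difference of 3.96 and 3.97, so that its log2 IP/input was lower in mutant embryos by 3.10 and 2.91. Its mean IP level was low in both lines, at -3.63 and -2.99 in mutant and -4.45 and -4.02 in wild type embryos. How far the low IP signal limits the IP difference of this run was not tested. In the run of 8 probes on 2R the IP difference was -5.37 and -5.57. Over the 49 mitochondrial probes the median IP difference was -1.10 and -1.47, and that of log2 IP/input was 0.10 and 0.22.

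**Figure D5:**
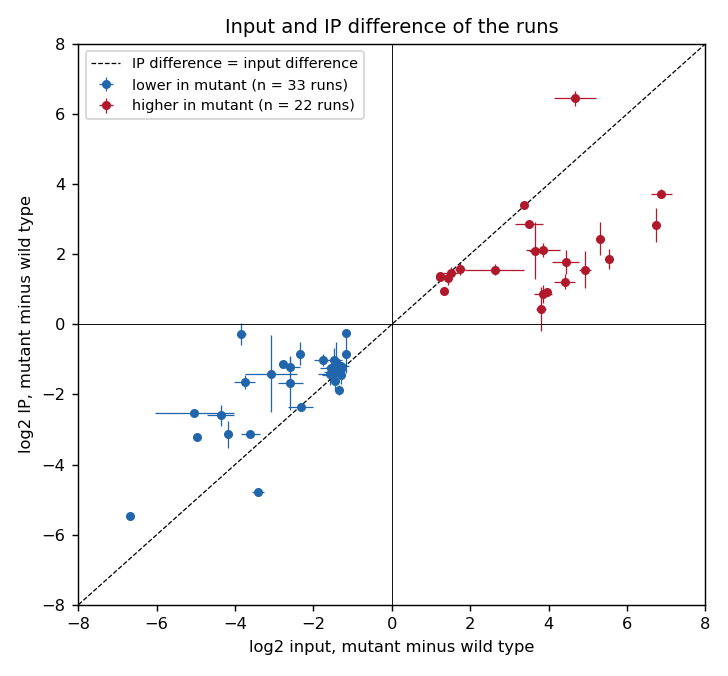
Mean log2 difference of mutant minus wild type in the input (horizontal axis) and in the IP (vertical axis) for the 33 lower and 22 higher runs; points are the mean of both replicates and bars reach to each replicate. Of the 25 runs with a mean input difference of 3 or more in either direction, 22 had a smaller IP difference and lie between the dashed line of equal differences and 0. The lowest levels are less low in the IP than in the input. At the 3L probe from 3611 to 3670, mutant replicate 2 was at -7.98 in the input and -4.57 in the IP. How far this limits the IP differences was not tested.

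Probe by probe, the IP followed in most cases. It had the direction of the input in both replicates in 85.6% of the 5871 differing probes, in 90.4% of the lower and 80.5% of the higher ones. The share was 98.4% in the 3076 probes whose IP was well above background in both samples of the line with more input. In the remaining 2795 probes it was 71.4%. This split takes the IP signal of the line that must be the higher one for the IP to follow. It therefore sets these shares in part, and they do not measure how IP brightness affects the following. Over all probes the IP had the same sign in both replicates, in either direction, in 58.4%. A difference of 1 or more in the direction of the input was reached in both replicates by 53.0% of the differing probes, while 1.52% of all probes reached it in either direction. By the same split on IP signal, and with the same limit, 73.6% of the 3076 probes and 30.2% of the 2795 reached it. The median difference in that direction was 1.82 and 1.89 in the input, and 1.65 and 1.33 in the IP. Probes with an input difference of 3 or more had a median IP difference of 2.85 and 2.21 beside 4.64 and 4.16 in the input. Of these 1536 probes, 747 had an IP well above background in both samples of the line with more input.

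The genotypes were compared in the IP channel with limma over all probes, and p-values were adjusted by Benjamini-Hochberg with a threshold of 0.05. Of 475166 probes tested, 307 passed (0.0646%), 138 of them lower and 169 higher in mutant embryos. Among the 266 probes in runs 31 passed (11.7%), and among the 5871 differing probes 260 passed (4.43%), so that 84.7% of all IP calls lay on probes with differing input. With the replicate number as a block, 7942 probes passed (1.67%), among them 130 of the 266 probes in runs (48.9%), and 27.6% of these calls lay on probes with differing input. Leaving out 1 of the 4 samples gave from 1169 calls without mutant replicate 2 to 3559 without wild type replicate 2, with 1811 without wild type replicate 1 and 1382 without mutant replicate 1.

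The same fit on log2 IP/input, the value that is read as H3K36me3, called 517 of 475027 probes (0.109%), 285 lower and 232 higher in mutant embryos. Of these calls, 459 (88.8%) lay on probes whose input differed, which is 7.82% of the differing probes. In the runs, 39 of 266 probes passed (14.7%). With the replicate block, 3759 probes passed (0.791%), 41.9% of them on probes with differing input. By size, 4424 probes had a log2 IP/input that differed by 1 or more in both replicates (0.931%). Of these, 1651 (37.3%) had differing input, 1567 of them in the opposite direction to the input and 84 in the same direction. The input is the denominator of this ratio, so that the 2 values are not independent. Without 1 of the 4 samples, the ratio gave 2868 and 2492 calls without mutant replicates 1 and 2, and 2849 and 5382 without wild type replicates 1 and 2.

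In the input itself, limma without a block called 0 of 475144 probes at an adjusted p under 0.05 and 7296 at an unadjusted p under 0.05 (1.54%). The difference between the replicate numbers, each with its own scan day, entered the error of that fit. With the replicate number as a block, 24042 probes passed (5.06%), among them 5845 of the 5871 differing probes. This contrast is the one that chose the probes, and the counts are given only as its background.

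The differing probes were set beside all probes in length and brightness, and those in runs also in place on the slide. Of all differing probes, 94.7% were 60 nt long, the longest probe on the arrays, against 68.5% of all probes. The share was 95.3% among the lower and 94.0% among the higher ones. Their brightness comes from the intensities that the rule used and is given as a description. They were dim even in the line with more signal, whose median log2 level over these probes was -2.17. Only 55.0% were well above background in all 4 inputs, against 96.4% of all probes. The part of brightness in these counts was not tested. Neighbouring probes of a run lay apart on the slide, with a median distance of 267 spots, against 253 spots for all neighbouring probes. The place on the slide of differing probes outside the runs was not compared.

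The background correction mattered to the size of these differences. With normexp, 991 probes were lower and 527 higher in mutant embryos, with 9 lower and 8 higher runs. Under it the 22 probes of the first 3L run differed by -0.06 in place of -3.42, and the 10 probes of the longest mitochondrial run by -1.44 in place of -1.49. The run of 4 lower probes on 3L from 7131186 was at 0.54 in place of -3.08, the reverse direction. The lowest signals are handled differently by the methods. The 1st percentile of an array was between 0.551% and 2.21% of its median with the processed intensities. With normexp it was between 7.40% and 61.8% and differed between the lines. On the arrays of the 3L runs it was 61.8% and 22.3% in mutant replicates 1 and 2, against 34.8% and 8.81% in wild type. On those of the 2L and 2R runs it was 7.41% and 7.40% in mutant, against 38.7% and 7.81% in wild type. Few probes lie below such a level, so a small or reversed normexp difference does not decide whether the input of a dim run differed. Its part in each change was not tested.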

How the data were processed

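H3K36me3 ChIP-chip of 2 *dkdm4a* mutant and 2 wild type embryo samples was analysed over 8 two-colour arrays of 2 designs, with the IP in the red channel (Cy5) and the input in the green (Cy3). Dyes were not swapped, and dye and channel cannot be told apart. Groups and replicate numbers came from the sample titles. The authors deposited spot intensities of Agilent Feature Extraction 10.5.1.1, whose processed intensity is background-subtracted, detrended and scaled between the dyes, with very low values replaced by small positive ones. They also deposited log2 ratios, for which the submitters' processing notes name limma. These log2 values followed the background-subtracted ratio (r from 0.973 to 0.983) plus an offset of 2.63 to 2.75 for each array and were used as an alternative, and how they were normalized is not given in the sources used here. The paper names no normalization of the input.

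Probes of both designs were joined by position. Outlier spots of a channel (251 probes in the input, 229 in the IP) and control spots were left out, and log2 levels were centred on each array's median. Replicate numbers pair the samples by scan day. Between the genotypes, the difference of replicate 2 from replicate 1 had a Pearson's r of 0.90 over input probes and 0.56 over IP probes. Runs described are those of at least 3 probes, and runs named are the 10 lower and 10 higher ones with the most probes, with ties set by the larger difference. Windows named are the 10 of 100 kb with the largest share. Stretches join differing probes of 1 direction at most 2500 bp apart, with at least 5 of them and at least 40% of all probes between. The stretches, the 1 Mb bins, the step on 3L and a few further runs and windows were chosen after the values were seen. The members and lists were chosen with earlier results of these data known.

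The test was limma 3.58.1 (lmFit, eBayes with trend) in R 4.3.3 with Benjamini-Hochberg adjustment at 0.05. It was tested on simulated data, as was the run procedure. Python 3.11.15, numpy 2.4.6, pandas 2.3.3, scipy 1.17.1 and matplotlib 3.10.9 were used. Alternatives covered background correction, centring, scaling, filters, thresholds, run rules, the replicate block and each sample left out.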

Additional observations from a re-analysis of the deposited data

How the results depend on the processing

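Counts of probes and runs were within 1.5 times of the reported ones in 52 of 81 combinations of result and setting. They did so without centring, with quantile normalization, with scaling, with outlier spots kept, with probes well above background in both inputs of 1 genotype, and with distances of 500 or 2000 bp or no limit. The exceptions follow, as probes lower and higher in mutant, then runs lower and higher, then bases covered, with the values that stayed within 1.5 times named as such. Normexp gave 991, 527, 9, 8 and 11764, and only probes well above background in all 4 inputs gave 1822, 1405, 17, 9 and 29029. A threshold of 1.5 gave 1480, 1743, 9, 14 and 19938, and a threshold of 0.8 moved only the bases, to 85611. Requiring every mutant sample to differ from every wild type sample gave 1522, 1876, 12 lower runs and 23215 bases. With only replicate 2 used, that is without replicate 1, 5221 probes were lower and 4415 higher. Without replicate 2, 4347 and 4300 probes were within 1.5 times, as were the runs and bases without either replicate, at 39 to 45 lower runs, 29 to 30 higher runs and 69215 to 77168 bases. Runs of at least 2 probes numbered 177 and 155 over 128457 bases, runs of at least 5 numbered 8 and 5 over 27263 bases, and with 1 failing probe allowed 80185 bases were covered. Of the 20 named runs under 4 changes of background or scaling, 1 value was reversed. It was the 3L run of 4 lower probes, at 0.54 with normexp, under which the lowest signals differed between the lines. With normexp the mean input difference of these runs was from -0.18 to 1.06 times the reported one. Without centring, with quantile normalization or with scaling it was 0.92 to 1.08 times. With normexp, the 2L run from 9055 was at 0.23 in place of 4.68, and that from 1276098 at 0.15 in place of 3.96. The 3L run from 17778 was at -0.54 in place of -1.29, and the X run from 2646473 at 1.26 in place of 1.32.

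Limma called 0 probes in the input, 24042 with the replicate block, 146 without trend, 54 with normexp and 543 to 913 without 1 sample (758 and 543 without mutant replicates 1 and 2, 762 and 913 without wild type replicates 1 and 2). The IP gave 7942 with the replicate block and 1169 to 3559 without 1 sample. Log2 IP/input gave 3759 with the replicate block, 2492 to 5382 without 1 sample, and 1600 with normexp, of which 115 were lower and 1485 higher in mutant, against 285 and 232. A fit without 1 sample takes the lone sample to vary like the other genotype, and the cause of the larger counts was not tested. The median IP difference over probes in runs, 1.60 in the direction of the input as the mean of both replicates, was 0.35 with normexp, with 35 of 55 runs following, 1.32 with probes well above background in the IP of all 4 samples, with 30 of 31 runs, and 1.72 in runs of at least 5 probes, with 13 of 13. The largest share in a window was 9.45% with windows of 200 kb, and 5.87% with a threshold of 1.5, in the window of 3L from 10200001. The cause of these shifts was not tested. At 1339 of the 5871 differing probes (22.8%) the dimmer line was not well above background in either sample while the brighter line was in both. Their fold is only a lower bound. The 2 scan days and 2 samples of each line limit every comparison.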
